A study of Mus musculus with 2 samples.

Results

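The mouse genes Tbx1, Tbx2, Tbx3, Tbx4, Tbx5, Tbx15, Tbx18, Tbx19, Tbx20 and Tbr1 encode T-box transcription factors, most of them known from heart or limb development. Their open chromatin in embryonic stem (ES) cell-derived cardiac progenitor cells (CPCs) is described here from a list of ATAC-Seq peaks. A peak was counted for a gene when the symbol on its line of the list was that of the gene, and intervals that stood on several lines were counted once. By this rule the 10 genes held 29 of the 26232 distinct peaks, against 15351 genes with a peak in the whole list.

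ATAC-Seq uses the Tn5 transposase, which inserts sequencing adapters where DNA is accessible, and a peak is a region in which such insertions pile up. The only group was day 5 CPCs of a directed differentiation in 2 replicates, from independent differentiations according to the methods. The ES cells were E14 cells carrying an Nkx2-5-EmGFP transgene, a fluorescent reporter of an early cardiac transcription factor, at passages 16 to 20. The labels give the strain as C57BL/6, although E14 lines are usually described as coming from another mouse strain. No knockdown or treatment is given for these samples. The Isl1 knockdown cells that the series also names were not analysed here. The cultures were differentiated in aggregates and as a monolayer with BMP4, Activin A, VEGF, bFGF and FGF10, and no sort for the reporter is named for the ATAC-Seq samples. A region open in few cells and a region weakly open in many cells therefore cannot be told apart.

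Both replicates are represented by 1 shared list that holds no score and no value per replicate. Neither the read depth nor an error between replicates could be had from it, and with 1 group no conditions could be compared, so all values are descriptions of this list. Where no peak is listed, the chromatin was not thereby measured as closed, and some of the original lines may be missing. As a check of the label, regulators of cardiac progenitors were looked up: Isl1 held 8 peaks, Mef2c 4, Nkx2-5 3 and Gata4 3, while Hand2 held none. The peak closest to the first coding start site of Hand2 lay at −8315 bp and was assigned to Uph. Of 21900 protein coding genes 62.5% had at least 1 peak and 10.3% had 3 or more. Isl1, Nkx2-5 and Mef2c each had a peak midpoint within 1 kb of a start site, while the peak assigned to Gata4 that was nearest to a start site lay at −1036 bp.

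T-box factors share a DNA-binding domain, named after the founding member Brachyury (T), that recognizes sequences related to AGGTGTGA. In the heart they act as activators (Tbx1, Tbx5, and in many settings Tbx20) or as repressors (Tbx2, Tbx3) that keep part of the organ from acquiring working chamber muscle, and they cooperate with Nkx2-5, Gata4 and Isl1. Development is sensitive to their dose: loss of a single copy of TBX5 in humans causes Holt-Oram syndrome, with heart and hand defects, and loss of a copy of TBX1 underlies much of DiGeorge syndrome. Tbx2 and Tbx4, and likewise Tbx3 and Tbx5, are neighbours in the mouse genome, an arrangement inherited from an ancestral gene pair.

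Of the 10 genes, 9 had at least 1 peak (Tbx19 had none), 8 had 2 or more and 6 had 3 or more. Among 21900 protein coding genes of the reference table, 62.5% had at least 1 peak, 24.4% had 2 or more and 10.3% had 3 or more. The median was 3 peaks per T-box gene and 1 per coding gene, and the means were 2.90 and 1.07. Tbx20 had the most with 6, a number reached by 1.23% of coding genes, followed by Tbx5 with 5, reached by 2.23%. This order holds for the gene assignment of the list only: by the nearest annotated coding start site Tbx3 came first with 9 peaks, Tbx5 had 5 and Tbx20 had 4. Tbx18 had 4 peaks, Tbx3, Tbx4 and Tbr1 had 3 each, Tbx2 and Tbx15 had 2 each, and Tbx1 had 1. The 6 genes known best from the heart held 21 of the 29 peaks (median 3.50 per gene), the limb genes Tbx4 and Tbx15 held 5, and of the pair known mainly outside heart and limb Tbr1 held 3 and Tbx19 none.

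**Figure D1:**
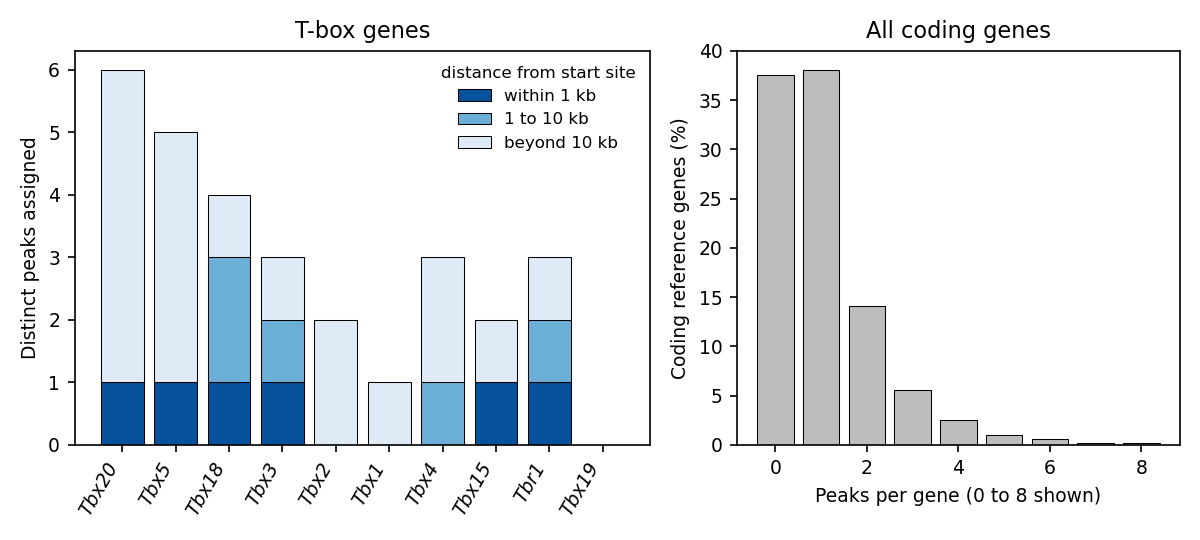
Distinct ATAC-Seq peaks per gene. Left, number of peaks assigned to each T-box gene, stacked by the distance of the peak midpoint from the assigned start site. Right, percentage of 21900 coding genes with 0 to 8 peaks. Every T-box gene with a peak has at least 1 beyond 10 kb of the assigned start site, and Tbx20 with 6 and Tbx5 with 5 peaks lie in the thin tail of the distribution of all genes.

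Peaks of the T-box genes lay mostly far from start sites. Midpoints of 18 of the 29 peaks (62.1%, 95% Wilson interval 44.0 to 77.3%) were more than 10 kb from the assigned start site, compared with 41.4% of all peaks. The interval covers counting error over peaks only, and peaks of 1 gene are not independent of each other. A peak beyond 10 kb was assigned to 9 of the 10 genes and to 23.9% of coding genes. Near this limit, the peaks at +11533 bp of Tbx2 and +11606 bp of Tbr1 were just outside it, and those at −9589 bp of Tbx18 and +9448 bp of Tbx3 just inside. Some of the 18 lay within 10 kb of another annotated start site of the same gene. These were the peaks of Tbx15 at −12432 bp (947 bp from it), Tbx4 at −13518 bp (−9877 bp) and Tbr1 at +11606 bp (9786 bp). Beyond 50 kb lay 9 peaks (31.0%) against 17.0% of all peaks, and these 9 belonged only to Tbx5, Tbx18 and Tbx20.

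Near start sites the share of genes with a peak was not far from that of all coding genes. A peak midpoint within 1 kb of the assigned start site was found at 6 genes (Tbx3, Tbx5, Tbx15, Tbx18, Tbx20 and Tbr1), and at 50.0% of coding genes. Of these peaks 4 covered the start site itself, at Tbx3, Tbx15, Tbx18 and Tbx20. The matching share over all genes was not computed. The peaks of Tbx5 and Tbr1 began 222 bp and 334 bp downstream of it. Upstream and downstream midpoints were nearly balanced, with 14 and 15 peaks, but not within genes. The midpoints of all 6 peaks of Tbx20 lay upstream and those of all 5 of Tbx5 downstream of the assigned start site.

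**Figure D2:**
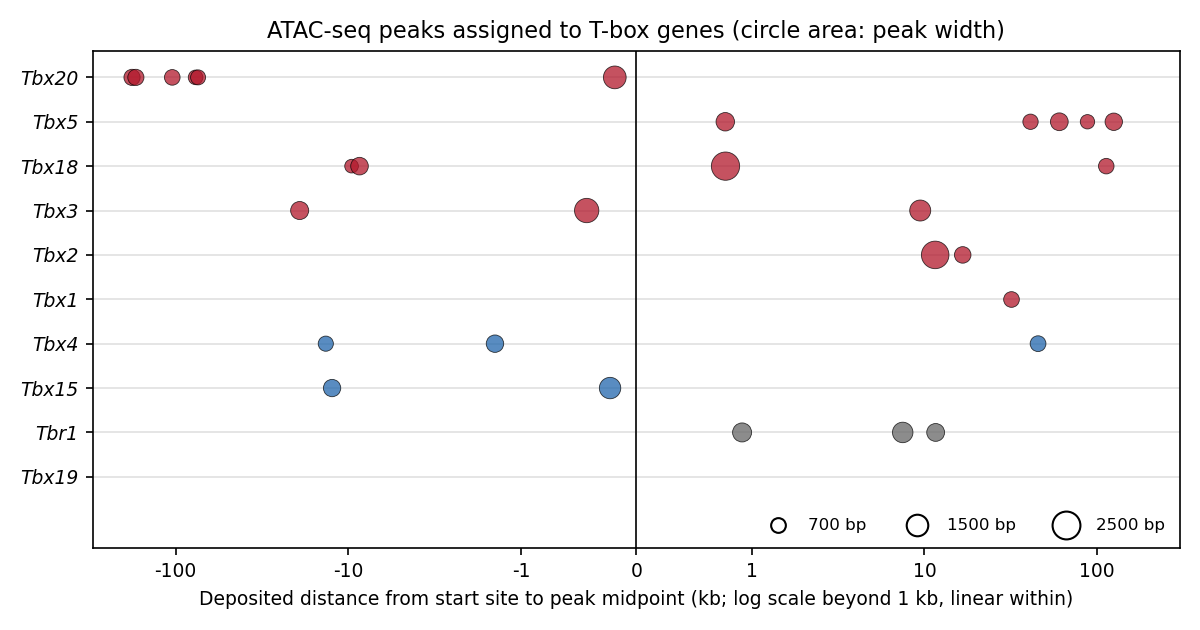
Distance of each peak midpoint from the start site assigned in the list (kb, negative upstream, linear within 1 kb and logarithmic beyond), with 1 row per T-box gene and circle area proportional to peak width. Red marks heart genes, blue limb genes and grey genes known mainly from elsewhere. Peaks of Tbx20 lie upstream to −178.7 kb, those of Tbx5 downstream to 124.5 kb, and the row of Tbx19 is empty.

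Tbx20, needed for growth of the heart chambers and for the valves, had a peak over its start site at chr9:24578102-24579770 (1669 bp wide, midpoint at −188 bp), wider than 73.8% of all peaks within 1 kb of a start site. Its other 5 peaks were intergenic and upstream, at −74116 bp (chr9:24652500-24653227), −76625 bp (chr9:24655028-24655717), −104549 bp (chr9:24682902-24683691), −169795 bp (chr9:24748121-24748965) and −178714 bp (chr9:24757040-24757884). They were 690 to 845 bp wide, and each was narrower than the median of 880 bp for all peaks beyond 10 kb. Apart from the edge of the start-site peak, none lay in the body of the gene. The peaks at −169795 and −178714 bp lay nearer to the annotated coding start site of Gm10181, at −145324 and −136405 bp from it.

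Tbx5, an activator of chamber and forelimb genes, had its nearest peak at +771 bp (chr5:120284894-120285993, 1100 bp), in an intron. This peak was wider than 27.7% of peaks within 1 kb. A further peak lay in an intron at +41079 bp (chr5:120325373-120326131, 759 bp). The remaining 3 were beyond the 3′ end of the gene, at +60291 bp (chr5:120344455-120345473, 1019 bp), +87730 bp (chr5:120372070-120372735, 666 bp) and +124534 bp (chr5:120408718-120409695, 978 bp). All peaks of Tbx5 thus lay from the start site onward, and none upstream. In the reference, the central 300 bp of the peak at +60291 bp are a short unit repeated in tandem. How well reads could be placed there was not tested. The counts of Tbx5 and of distal peaks include this peak.

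Tbx18, which marks progenitors of the sinus node and the epicardium, carried the widest of the 29 peaks, 2580 bp at chr9:87624033-87626612. It covered the start site and reached into the gene (midpoint +773 bp), and 96.3% of peaks within 1 kb were narrower. A pair of narrower peaks lay upstream at −8626 bp (chr9:87634221-87635222, 1002 bp) and −9589 bp (chr9:87635384-87635986, 603 bp), and another downstream in intergenic sequence at +112698 bp (chr9:87513008-87513787, 780 bp). Widths within this gene ranged over the whole span seen among the T-box peaks, since 603 bp was also the narrowest.

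Tbx3, a repressor of chamber genes in the conduction system, had a 1911 bp peak over its start site (chr5:120119485-120121395, midpoint −432 bp), wider than 83.9% of peaks within 1 kb. Upstream, at −19145 bp, lay a 1053 bp peak (chr5:120101201-120102253) in introns of the annotated genes Gm16064 and Gm2301. The peak at +9448 bp (chr5:120129980-120131402, 1423 bp) had its midpoint in a coding exon of Tbx3 and covered another annotated start site of the gene. The distances of Tbx3 and of Tbx4 were measured from more than 1 start site, so they do not place all peaks of these genes on 1 axis.

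Tbx2, the closest relative of Tbx3 and a repressor in the atrioventricular canal, had no peak within 10 kb of its start site. Its nearest peak, at +11533 bp (chr11:85656427-85658874), was 2448 bp wide and lay in intergenic sequence past the 3′ end of the gene. Among all peaks beyond 10 kb 99.1% were narrower. The other peak of Tbx2 was at +16641 bp (chr11:85662317-85663200, 884 bp), in an intron of Gm11444. Both peaks lay nearer to the annotated coding start site of Gm11444, at 6185 and 1077 bp.

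Tbx1, which acts in the second heart field and the pharynx, had a single peak. It was 796 bp wide at +31605 bp (chr16:18555060-18555855), past the 3′ end of Tbx1 and inside an intron of the neighbouring gene Gnb1l. The nearest peak of any gene to the first coding start site of Tbx1 was assigned to Gp1bb and lay at −29787 bp.

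Of the limb genes, Tbx4, required for hindlimb outgrowth and expressed in the lung, had peaks at −13518 bp (chr11:85689677-85690419, 743 bp), −1419 bp (chr11:85701657-85702637, 981 bp) and +45415 bp (chr11:85755281-85756084, 804 bp). The peak at −1419 bp was upstream of the start site used in the list but in an intron of the longest Tbx4 model, 2222 bp downstream of the first annotated coding start. Tbx15, a gene of skeleton, muscle and coat pattern, had a 1478 bp peak over its start site (chr3:99056716-99058193, −229 bp). Its other peak, at −12432 bp (chr3:99044767-99045736, 970 bp), lay 947 bp from the start of a noncoding transcript annotated for Tbx15.

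Tbr1, a gene of cortical neurons, had peaks at +917 bp (chr2:61642844-61644011, 1168 bp), +7483 bp (chr2:61649317-61650670, 1354 bp) and +11606 bp (chr2:61653604-61654630, 1027 bp). The midpoints of the first pair lay in coding exons and the third past the gene end. The GC content of these 3 peaks was 57.9%, 67.1% and 61.9%, against a median of 57.0% over the 29 peaks and 54.5% over all peaks. In their distance classes (within 1 kb, 1 to 10 kb and beyond 10 kb) the medians of all peaks were 58.6%, 53.1% and 50.9%. Tbx19, a gene of the pituitary, had no peak. The peak closest to its first coding start site lay at −33531 bp and was assigned to Sft2d2.

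Widths followed distance in the T-box genes as in the whole list. The median width was 978 bp over the 29 peaks, with quartiles of 790 and 1168 bp, and 1081 bp over all peaks, with quartiles of 835 and 1433 bp. The 95% order-statistic interval of the former, 796 to 1100 bp, held the latter value. Within 1 kb the 6 T-box peaks had a median of 1573.5 bp and all peaks one of 1326 bp, from 1 to 10 kb 5 peaks had 1002 bp against 1014 bp, and beyond 10 kb 18 peaks had 824.5 bp against 880 bp. In each class the quartile ranges of T-box peaks and of all peaks overlapped. The start-site peaks of Tbx18, Tbx3 and Tbx20 and the distal peak of Tbx2 were the 4 widest. Together the 29 peaks covered 32094 bp.

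**Figure D3:**
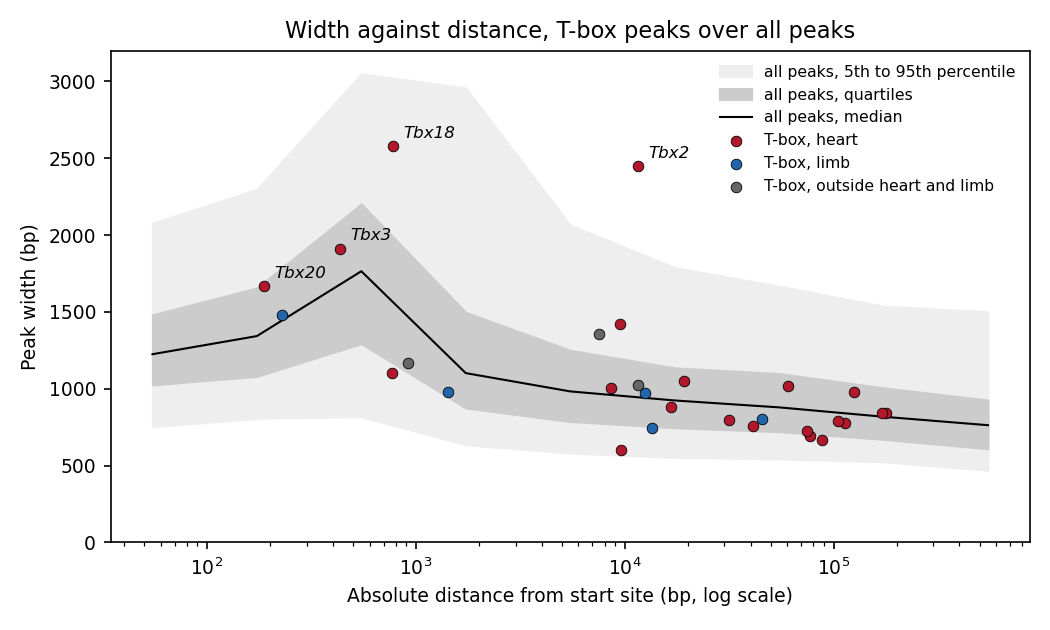
Peak width (bp) against absolute distance of the midpoint from the assigned start site (bp, log axis). Points are the 29 T-box peaks, the line is the median of all peaks in distance bins, and the bands are their quartiles and their 5th to 95th percentiles. The Tbx2 peak at 11533 bp lies far above the band for its distance with 2448 bp, and most other distal points lie within the quartile band.

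Promoters were then examined without the gene assignment of the list, from the first coding start site in the annotation with 500 bp on either side. Of the 10 promoters 6 overlapped a peak, those of Tbx3, Tbx5, Tbx15, Tbx18, Tbx20 and Tbr1, compared with 53.6% of 22213 coding promoters. Promoters were called CpG-rich where GC content reached 50% and the ratio of observed to expected CpG reached 0.6. Such promoters often lie in CpG islands and are open in many cell types. Of the T-box promoters 6 were CpG-rich, against 44.6% of all. Peaks overlapped 89.4% of CpG-rich and 24.9% of CpG-poor promoters in the whole annotation.

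Of the 6 CpG-rich promoters 4 overlapped a peak (Tbx3, Tbx15, Tbx18 and Tbx20). The promoters of Tbx1 (GC 59.6%, CpG ratio 0.62) and Tbx2 (70.5%, 0.76) did not, with gaps of 29300 bp and 10374 bp to the nearest peak. Of the 4 CpG-poor promoters, those of Tbx5 (51.9%, 0.12) and Tbr1 (46.0%, 0.47) overlapped a peak and those of Tbx4 (62.3%, 0.51) and Tbx19 (50.7%, 0.28) did not. With 6 and 4 genes these counts were not tested.

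The CpG classes are visible in the sequence. The stretches below run from 100 bases upstream of the first coding start site (mm9, strand of the gene, 5′ to 3′), with CpG dinucleotides in capitals. They are shown for Tbx20, CpG-rich with a peak over its start site (chr9:24578647-24578846, minus strand), for Tbx1, CpG-rich without a peak nearby (chr16:18588014-18588213, minus strand), and for Tbx5, which is CpG-poor and has its peak just downstream (chr5:120284572-120284771, plus strand). The Tbx20 stretch holds 16 CpG and the Tbx1 stretch 15, so they differ little in this although only the former lies at a peak. The Tbx5 stretch holds no CpG and a run of CA and GA repeats in front of and across the start site.
Tbx20: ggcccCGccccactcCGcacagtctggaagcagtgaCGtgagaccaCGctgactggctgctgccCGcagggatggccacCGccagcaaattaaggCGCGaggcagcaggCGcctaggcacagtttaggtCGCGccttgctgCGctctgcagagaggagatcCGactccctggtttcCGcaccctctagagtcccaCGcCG
Tbx1: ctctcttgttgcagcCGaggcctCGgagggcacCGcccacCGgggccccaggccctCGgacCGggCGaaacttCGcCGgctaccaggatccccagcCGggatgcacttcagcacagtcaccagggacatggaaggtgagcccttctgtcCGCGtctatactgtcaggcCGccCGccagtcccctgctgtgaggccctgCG
Tbx5: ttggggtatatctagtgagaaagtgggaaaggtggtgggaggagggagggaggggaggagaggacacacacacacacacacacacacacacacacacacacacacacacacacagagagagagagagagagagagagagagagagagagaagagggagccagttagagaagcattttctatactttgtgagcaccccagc

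**Figure D4:**
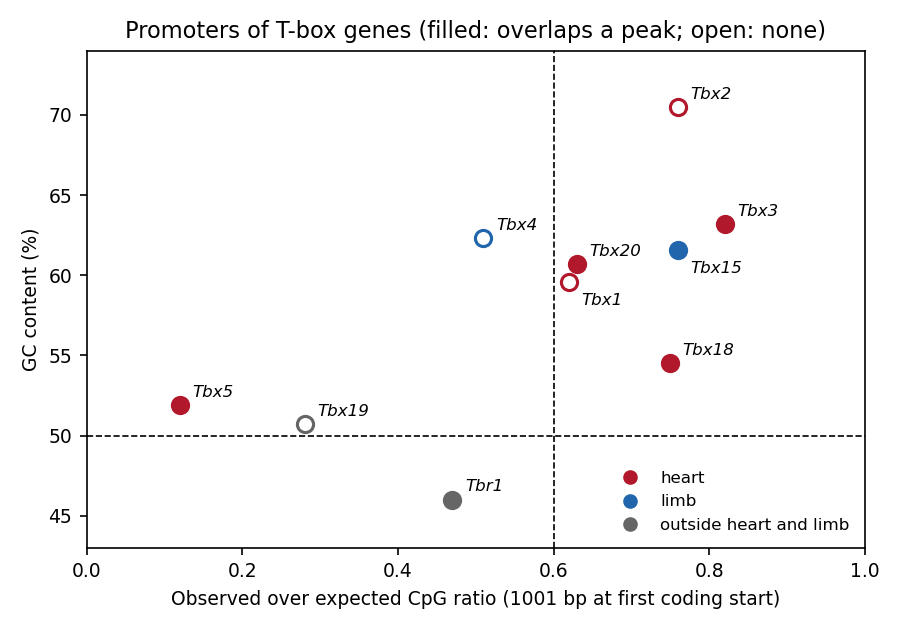
GC content (%) against the observed over expected CpG ratio of the sequence around the first coding start site of each T-box gene (500 bp on either side). Filled circles overlap a peak and open circles do not, colours give the group of the gene, and dashed lines mark the limits for a CpG-rich promoter (0.6 and 50%). Tbx2 and Tbx1 are the open circles on the CpG-rich side, and Tbx5 and Tbr1 the filled ones on the CpG-poor side.

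Genes far from their neighbours can collect more peaks by nearest-gene assignment, so each T-box gene was also described by its territory, the stretch between the nearest bodies of other coding genes that do not overlap it. The median territory was 319.6 kb for the T-box genes and 76.8 kb for 22164 coding genes, and 8 of the 10 were longer than the latter. Counted per length, the median of the T-box genes was 1.44 peaks per 100 kb, against 1.42 for all, and 5 of the 10 were at or below that value. Territories were not matched for length, and whether length accounts for the higher counts per gene was not tested. The territory of Tbx2 was short (20.7 kb) and held 1 peak, or 4.82 per 100 kb. Those of Tbx15 (646.2 kb, 2 peaks) and Tbx18 (1072.1 kb, 6 peaks) were sparse, at 0.309 and 0.560 per 100 kb. Tbx4, Tbx1, Tbx20 and Tbx5 were above the median of all genes, at 2.41, 1.86, 1.78 and 1.62. The value of Tbx1 rests on 1 peak, assigned to Gp1bb, and the peak assigned to Tbx1 lay outside its territory.

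The territories held 45 distinct peaks, of which 27 were assigned to a T-box gene and 18 to another gene. The territory of Tbx3 showed this most: 11 peaks lay in its 1069.2 kb, 3 assigned to Tbx3 and 8 to noncoding genes of the same gene desert (4930413E15Rik, 1700081H04Rik, Gm7538, AW549542, Gm16063 and Tbx3os2). Those to AW549542 and Gm16063 were between −95.4 and −26.7 kb of the first Tbx3 start site. In the 238.8 kb around Tbx19, all 3 peaks were assigned to the noncoding gene 4930568G15Rik, from 51.2 to 141.8 kb downstream of the first coding start of Tbx19. Around Tbx4, 2 of 5 peaks were assigned to Gm20759, and around Tbx18, 2 of 6 to Nt5e, at about −510 kb. The territory of Tbx20 held 7 peaks, and the 1 not assigned to it, assigned to Herpud2, lay −200.0 kb from its start.

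The neighbouring pairs differed in where their peaks lay. Between the bodies of Tbx2 and Tbx4 (44.5 kb on chromosome 11) lay 3 peaks, 2 assigned to Tbx2 and 1 to Tbx4. Between Tbx3 and Tbx5 (149.9 kb on chromosome 5) lay only 1, assigned to Tbx3os2, while the other peaks of this pair were on the far sides, upstream of or in Tbx3 and within or downstream of Tbx5. Assigning each peak to the nearest annotated coding start site instead raised Tbx3 from 3 to 9 peaks, Tbx4 from 3 to 4 and Tbx19 from 0 to 2, and lowered Tbx20 from 6 to 4 and Tbx2 from 2 to 1. The other 5 genes kept their counts, and the total rose from 29 to 35. This rule leaves out noncoding genes, and its counts are not given for all coding genes, so the rises have no background. Both listed Tbx2 peaks then went to Gm11444, and the 1 counted for Tbx2 was another, at −14062 bp, which the list gives to 2610027K06Rik. For Tbx20 the peaks at −169795 and −178714 bp went to Gm10181.

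**Figure D5:**
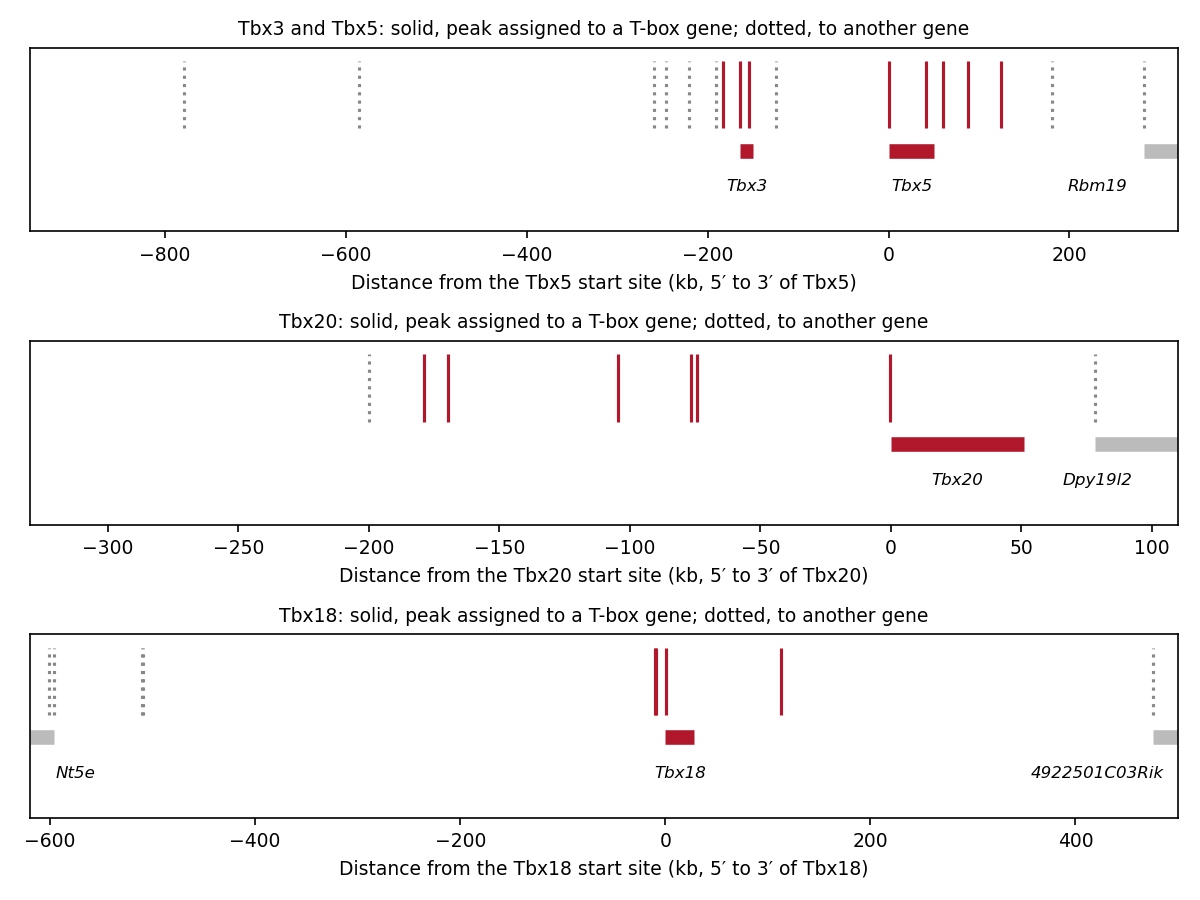
Peaks around Tbx3 and Tbx5, Tbx20, and Tbx18, drawn to scale in kb from the start site of Tbx5, Tbx20 and Tbx18 and running 5′ to 3′ of that gene. Bars are coding gene bodies (red, T-box genes), solid lines are peaks assigned to a T-box gene and dotted lines peaks assigned to another gene. Peaks flank the Tbx3 and Tbx5 pair with 1 between them, and the distal peaks of Tbx20 all lie upstream. The peak assigned to 4930413E15Rik, at −980.2 kb from the Tbx5 start site, falls outside the panel and is not drawn.

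Motifs of cardiac factors were searched on both strands in the central 300 bp of each peak: AGGTGTGA for T-box factors, AGATAA for GATA factors, TNAAGTG for NK2 factors such as Nkx2-5, TAATNG for homeodomain factors including the LIM-homeodomain class of Isl1, and GGAATG for TEAD factors. No T-box motif was found in the 29 peaks (0%, Wilson upper limit 11.7%), nor when whole peaks were searched. Over all peaks 1.16% held one in the central 300 bp and 4.88% in the whole peak, and both shares lie under the limit that 29 peaks allow. The GATA motif stood in 2 peaks (6.90%, all peaks 9.50%), the NK2 motif in 2 (6.90%, all peaks 9.69%), the homeodomain motif in 4 (13.8%, all peaks 13.1%) and the TEAD motif in 5 (17.2%, all peaks 16.5%). Each share of all peaks lay within the Wilson interval of the T-box peaks. For the 23 T-box peaks beyond 1 kb the shares were 8.70% for GATA, 8.70% for NK2, 17.4% for homeodomain and 21.7% for TEAD. Those of all peaks beyond 1 kb were 14.6%, 12.7%, 17.8% and 22.4%, again within the Wilson intervals. In the central 300 bp none of the 6 peaks within 1 kb held a match, and among all peaks within 1 kb the shares were 3.28% for GATA, 6.04% for NK2, 7.35% for homeodomain and 9.33% for TEAD. Over the whole width of these 6 peaks, 4 held a homeodomain, 3 a TEAD, 2 a GATA and 1 an NK2 match, against 50.3%, 45.6%, 29.7% and 39.1% of all peaks within 1 kb. In the central 300 bp 21 of the 29 peaks (72.4%) held none of the 5 motifs, compared with 61.8% of all peaks.

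Over whole peaks matches were common, as in the full list. A homeodomain match stood in 51.7% of the 29 (all peaks 51.1%) and a TEAD match in 48.3% (47.1%). The shares were 27.6% for GATA (33.5%) and 31.0% for NK2 (37.8%). Within the central 300 bp, 2 of the 29 held 3 kinds of motif (6.90%, all peaks 1.60%). The first was the peak 112698 bp downstream of Tbx18, with 2 GATA, 1 NK2 and 2 TEAD matches. The other was the peak of Tbx20 at −169795 bp, with 1 NK2, 1 homeodomain and 1 TEAD match. Both were chosen for display because of their matches. By the nearest annotated coding start site the peak at −169795 bp went to Gm10181 and not to Tbx20. The 300 central bases of both are printed on the strand of the gene (mm9, chr9:87513248-87513547 and chr9:24748393-24748692, both minus strand), with matches in capitals, and followed by 3 other distal peaks with matches: that of Tbx5 at +87730 bp (homeodomain and TEAD, chr5:120372253-120372552, plus strand), that of Tbx5 at +124534 bp (GATA, chr5:120409057-120409356, plus strand) and that of Tbx20 at −76625 bp (2 TEAD, chr9:24655223-24655522, minus strand). A match is a string of letters and not a binding site. In the Tbx18 peak the NK2 and GATA matches in the 3′ part of the stretch are 1 base apart.
Tbx18 +112698: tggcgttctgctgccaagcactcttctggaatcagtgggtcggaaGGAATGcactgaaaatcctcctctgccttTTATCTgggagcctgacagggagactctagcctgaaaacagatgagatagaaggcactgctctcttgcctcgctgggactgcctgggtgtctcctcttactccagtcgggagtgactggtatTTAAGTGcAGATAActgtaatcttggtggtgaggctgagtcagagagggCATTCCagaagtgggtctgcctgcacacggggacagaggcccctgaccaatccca
Tbx20 −169795: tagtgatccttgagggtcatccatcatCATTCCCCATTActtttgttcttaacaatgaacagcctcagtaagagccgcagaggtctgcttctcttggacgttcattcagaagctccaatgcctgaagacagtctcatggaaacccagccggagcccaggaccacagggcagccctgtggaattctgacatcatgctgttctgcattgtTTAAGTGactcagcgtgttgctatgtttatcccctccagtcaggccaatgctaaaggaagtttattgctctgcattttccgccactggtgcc
Tbx5 +87730: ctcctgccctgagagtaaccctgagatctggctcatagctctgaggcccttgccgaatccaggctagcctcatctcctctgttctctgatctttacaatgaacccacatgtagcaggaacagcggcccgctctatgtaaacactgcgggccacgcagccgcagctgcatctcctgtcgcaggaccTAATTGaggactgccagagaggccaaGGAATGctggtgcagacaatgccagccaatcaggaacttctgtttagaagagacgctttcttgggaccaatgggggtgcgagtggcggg
Tbx5 +124534: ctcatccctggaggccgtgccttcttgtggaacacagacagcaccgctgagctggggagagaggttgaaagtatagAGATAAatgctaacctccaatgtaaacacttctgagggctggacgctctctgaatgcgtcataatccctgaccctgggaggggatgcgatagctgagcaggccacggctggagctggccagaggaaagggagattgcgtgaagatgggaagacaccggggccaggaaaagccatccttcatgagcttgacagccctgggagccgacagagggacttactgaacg
Tbx20 −76625: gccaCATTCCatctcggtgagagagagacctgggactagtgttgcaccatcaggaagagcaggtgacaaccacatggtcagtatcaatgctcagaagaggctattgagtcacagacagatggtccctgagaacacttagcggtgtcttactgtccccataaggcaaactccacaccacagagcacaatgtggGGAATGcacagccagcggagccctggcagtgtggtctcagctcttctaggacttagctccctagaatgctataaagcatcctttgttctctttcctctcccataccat

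Genes of the same pathway gave a frame for these counts. Of 7 other T-box genes 4 had a peak, with 13 peaks and a median of 1 per gene: the mesoderm gene T had 6, the endoderm and mesoderm gene Eomes 3, the broadly expressed Mga 3 and Tbx21, a gene of T helper cells, 1, while Tbx6, Tbx10 and Tbx22 had none. All 4 had a peak within 1 kb of a start site. Of 8 partners of cardiac T-box factors 7 had a peak, with 28 peaks and a median of 3. Besides those named above, Hand1 had 5 peaks, Gata6 3 and Smarcd3, which encodes the chromatin remodelling subunit Baf60c, 2, and Hand2 had none assigned. The share of partner peaks beyond 10 kb, 64.3%, was close to the 62.1% of the 10 genes described here.

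Genes known as targets of cardiac T-box factors were looked up as well. The growth and signalling genes Mycn, Id2, Fgf10 and Bmp4 had 5, 4, 3 and 3, the conduction genes Hcn4, Gja1 and Gja5 had 3, 3 and 1, and Nppb, encoding a natriuretic peptide of the heart chambers, had 1. Nppa, Fgf8 and Myh6, a myosin of differentiated heart muscle, had none assigned. These lists differ in size and were chosen with the data known, and differences between them were not tested.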

How the data were processed

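ATAC-Seq was performed by the authors on CPCs in 2 replicates. Per the methods, they aligned reads to mm9 (Bowtie2), filtered out secondary and improperly paired alignments (SAMtools) and duplicates (Picard, version 1.136 in the submitters' processing notes), and called peaks for each replicate in MACS14 using a fixed shift in place of a fragment model. Blacklisted regions were dropped, and bedtools (version 2.15) retained those peaks of a replicate that the other shared by 1 bp or more. Peak width thus depends on the caller and the depth of the replicate that supplied the coordinates. The step that assigned genes is described for ChIP-Seq peaks only and is taken to be the nearest start site. The deposited columns hold position, signed distance in bp, accession and symbol.

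The list held 26429 lines, with 196 intervals on more than 1 line. Positions are 1-based. Of the 29 distances, 26 matched a GENCODE vM1 start site within 1 bp. Gene models and sequence came from NCBIM37 (mm9), which is a reference and not the sequence of these cells. Background genes were 21900 coding genes of a RefSeq table (GRCm38.p6, names only), matched by accession. Python 3.11.15, numpy 2.4.6, scipy 1.17.1, pandas 2.3.3 and matplotlib 3.10.9 were used, and the counting steps were tested on simulated lists. Wilson intervals have 95% confidence and cover counting error only. No tests were run, since there is 1 group and no value per replicate. All 10 genes are named by rule. The genes, lists and motifs were chosen with earlier results of these data known. A gene of the target list, with that list's totals, and a start-site sequence are not reported here. Alternatives changed the line count, minimum width, gene assignment, distance limits, promoter size, territory bounds and motif.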

Additional observations from a re-analysis of the deposited data

How the results depend on the processing

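Of 46 combinations of 9 results with an alternative setting, 38 stayed close to the reported value and 8 moved. Keeping only peaks wider than the median of the list left 9 peaks assigned to the T-box genes, a median of 1 per gene, 11.1% of them beyond 10 kb, a median width of 1478 bp and 12 peaks in territories. This follows from the setting, since distal peaks are narrower. A start-site window of 500 bp left 3 genes with a start-site peak, a limit of 50 kb left 31.0% of peaks as distal, and territories bounded by any annotated gene held 29 peaks. Assignment to the nearest annotated coding start site gave 35 peaks, and the T-box motif shortened by 1 base was found in 3.45% of the 29 T-box peaks. Shares over all peaks or all genes are not given for these alternatives, so their values have no background beside them. No paired analysis was possible because all samples form 1 group. Leaving out a replicate was not run, as replicates have no columns of their own in the list. Depth is unknown, so an undetected peak sets no limit on accessibility.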
